A study of Mus musculus with 7 samples.

Results

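The quiescent stellate cells of the wild-type pancreas were the cells that the submitters' annotation placed in the stellate clusters of the WT mice that were not named Activated. They comprised 3370 of the 10653 annotated WT cells, and of 58473 cells in the whole series. In the first WT library, 1024 of 4327 cells belonged to them (23.7%, exact Clopper-Pearson 95% interval 22.4 to 25.0), and in the second 2346 of 6326 (37.1%, 35.9 to 38.3). The intervals cover counting error only, and with 2 mice the difference between the libraries was not tested. The cells came from a pair of clusters, Quiescent 1 with 828 and 1911 cells and Quiescent 2 with 196 and 435 cells in WT 1 and WT 2. Quiescent 2 thus made up 19.1% (16.8 to 21.7) and 18.5% (17.0 to 20.2) of the quiescent cells in the 2 libraries.

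The study profiled whole pancreas of C57BL/6 mice (strain as labelled) aged 2 months by single-cell RNA sequencing with 10x Genomics 3' chemistry, with 1 library per mouse. The 2 WT mice were wild type and drank doxycycline at 1 mg/ml for 7 days. The 3 i4F mice (i4F-B genotype, a line made on C57BL/6J.Ola.Hsd) drank the same doxycycline and carried a doxycycline-inducible cassette of the reprogramming factors Oct4, Sox2, Klf4 and c-Myc inserted in Pparg, together with the rtTA transactivator at Rosa26. Neither transgene is restricted to a cell type, so stellate cells were not targeted alone. The 2 CER mice were wild type and received caerulein, a secretagogue that causes mild pancreatitis, at 100 µg/kg in 7 injections a day for 2 days, and their labels list no doxycycline. WT 1 and the i4F mice carry library names of one series and WT 2 and the CER mice names of another. The clusters of each condition were made and named separately, and in i4F and CER every stellate cluster was named Activated.

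Stellate cells are fibroblast-like cells that lie around the acini, ducts and vessels of the pancreas. In the resting state they are known for stores of vitamin A in lipid droplets and for slow turnover of the interstitial matrix. On injury they become myofibroblasts, which contain smooth muscle actin and secrete fibrillar collagen.

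The label was first checked against its 4 defining markers. At least 2 of them had a unique molecular identifier (UMI, a count of 1 captured RNA molecule) in 98.1% of the quiescent cells of WT 1 and in 96.8% of those of WT 2. Dcn (decorin, a small proteoglycan that binds collagen fibrils, chromosome 10:97479500-97518163 of GRCm38) was detected in 99.7% and 99.8% of them, against 13.9% and 17.0% of the other WT cells. Col1a2 (a chain of type I collagen) was detected in 96.5% and 93.7%, against 5.15% and 6.61%. For Pdgfra, a receptor for platelet-derived growth factor that marks fibroblasts, the shares were 72.3% and 50.7% against 1.39% and 1.66%. Lum (lumican, another collagen-binding proteoglycan) had a UMI in 92.5% and 78.8% of quiescent cells and in 2.60% and 2.76% of the others. The median depth was 4781 and 3656 UMIs per quiescent cell and 1341 and 1746.5 UMIs per other cell, so the shares compare cells of unequal depth.

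Summed over cells, Dcn stood at 26926 and 25189 counts per 1000000 UMIs (CPM) in the quiescent cells of WT 1 and WT 2, and at 1021 and 1337 CPM in all other WT cells. Among single clusters it was 28971 and 27086 CPM in Quiescent 1 and 21150 and 19024 CPM in Quiescent 2. The mesothelium came next in order with 11376 and 16407 CPM, below both quiescent clusters in each library. The WT cluster named Activated held 1725 and 1338 CPM, and the acinar cells 452 and 264 CPM.

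Of other markers used for stellate cells, Lrat and Gfap were low and Des was higher in the Activated cluster. The stellate cell gene Cygb and some retinoid and lipid genes, given below, were higher in the quiescent cells than in the other WT cells. Lrat, the enzyme that esterifies retinol for storage, had 12 and 5 UMIs in all, in 0.879% and 0.213% of the cells. Gfap, an intermediate filament used as a marker of stellate cells, had 0 UMIs in WT 1 and 1 UMI in WT 2, and 0 of 1024 cells allows a share of cells with a Gfap UMI of up to 0.293%, which does not limit the share of cells that express it. Des (desmin), a classical stellate cell filament, was at 147 and 156 CPM in the quiescent cells, 77.5 and 89.1 CPM in the other cells and 2064 and 2051 CPM in the Activated cluster. The cells are therefore described here by the submitters' name, with Dcn, Col1a2, Pdgfra and Lum detected in most cells and few or no UMIs of Lrat and Gfap.

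**Figure D1:**
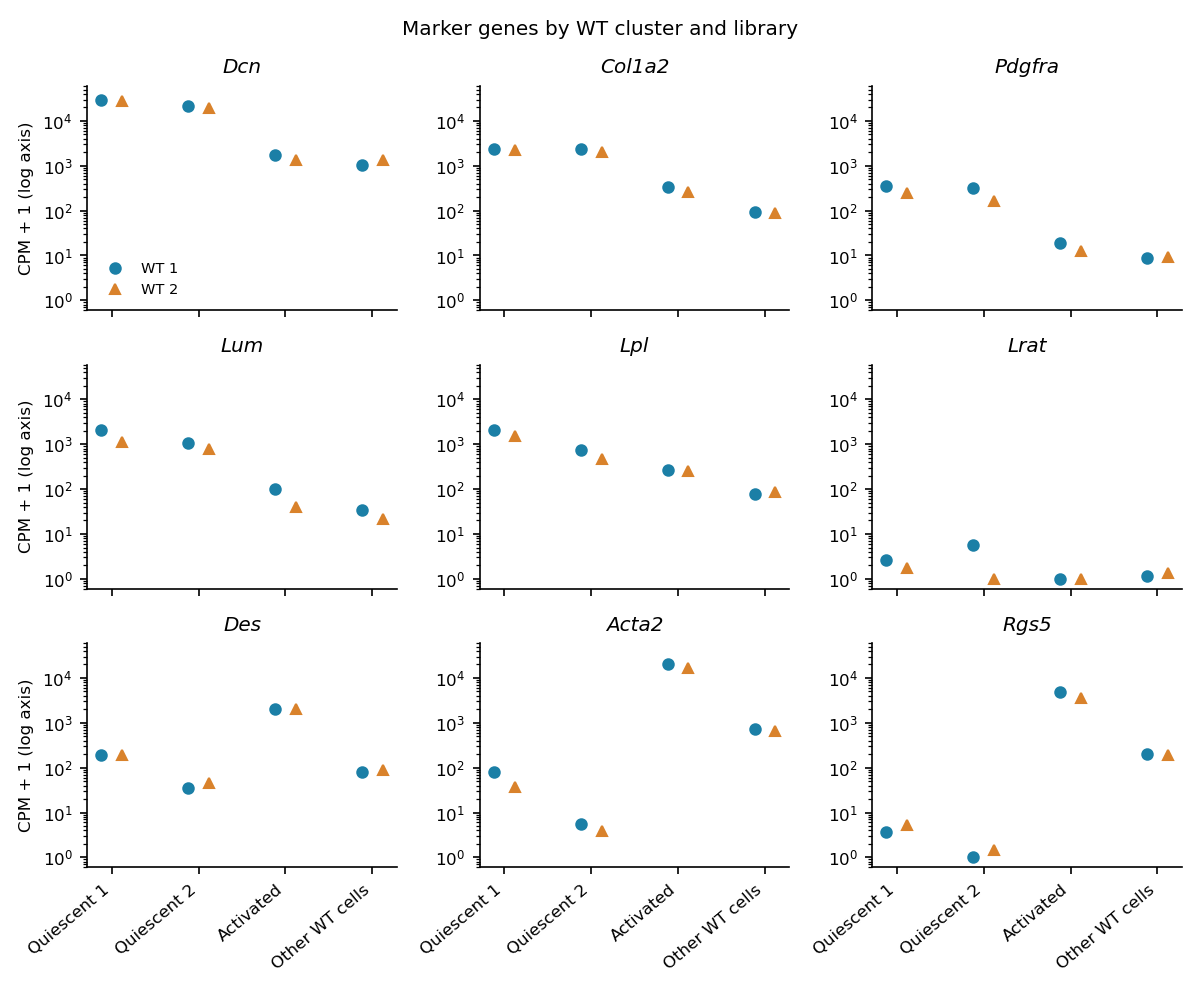
Level of 9 marker genes (CPM of summed UMIs + 1, log axis) in the WT clusters Quiescent 1, Quiescent 2 and Activated and in all other WT cells, with circles for WT 1 and triangles for WT 2. Dcn, Col1a2, Pdgfra and Lum were highest in both quiescent clusters, Acta2, Rgs5 and Des were highest in the Activated cluster, and Lrat was near 0 throughout.

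Levels of marker lists of other cell types were measured in the quiescent cells. The summed level of 17 acinar genes was 1195 and 1159 CPM, 0.609% and 0.988% of the level in the acinar clusters of the same libraries. Ductal genes reached 0.461% and 0.297% of their own level, islet genes 0.0427% and 0.0591%, and macrophage genes 0.120% and 0.236%. Endothelial genes stood at 2.26% and 2.22%, and mesothelial genes, where Igfbp5 was the largest contributor, at 3.60% and 4.42%. A pericyte and smooth muscle list was at 4.56% and 4.81% of its level in the Activated cluster. The largest single genes were Eng with 234 and 170 of 407 and 400 CPM (endothelial) and Igfbp5 with 243 and 291 of 345 and 361 CPM (mesothelial). In the pericyte list it was Steap4, with 214 and 197 of 771 and 735 CPM. Igfbp5 is also on the universal fibroblast list used below, so these shares do not measure RNA of other cells alone.

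The next question was which genes set the quiescent cells apart from the rest of the WT pancreas. Because the clusters were made from these genes, the ratios are a description without a test. A gene was counted as higher where log2((CPM + 10)/(CPM + 10)) reached 2, a 4-fold ratio, in both WT libraries. Of 3354 genes with at least 50 CPM in both libraries on one side, 265 were higher in the quiescent cells (7.9%) and 286 lower (8.53%). The actin-severing protein gelsolin headed the list. Gsn stood at 27544 and 28514 CPM in the quiescent cells against 584 and 736 CPM in the others, and the quiescent cells held 95.2% and 96.6% of all Gsn UMIs of their libraries. Pi16, a peptidase inhibitor domain protein of adventitial fibroblasts, was at 972 and 1201 CPM against 13.1 and 23.8. Dpt (dermatopontin, a matrix protein) was at 1374 and 1166 CPM against 24.2 and 28.0 CPM, and the dipeptidase gene Dpep1 at 1863 and 1727 against 22.5 and 46.6 CPM. Penk, which encodes the precursor of enkephalin peptides, was at 1354 and 1666 CPM in the quiescent cells and 30.5 and 44.6 CPM elsewhere. Genes furthest below the other cells were markers of other lineages, among them Krt18 of ducts (34.2 and 21.7 CPM against 5302 and 3776) and the islet hormone gene Sst (3.03 and 1.84 against 1789 and 2054).

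Collagen chains were prominent in the quiescent cells. Of 39 collagen chains listed, 15 had enough reads to compare, and 12 of these were at least 4-fold higher in the quiescent cells and none lower, with a median log2 ratio of 3.99 in WT 1 and 3.98 in WT 2 against -0.15 and -0.13 over all genes compared. The 12 chains were those of types I, III, V, VI, XIV and XV. Col3a1 was at 3231 and 2456 CPM against 158 and 156 CPM, and Col1a1 at 1296 and 1282 against 72.1 and 46.9. The type VI chain Col6a1, part of a beaded network around cells, was at 1179 and 917 CPM against 48.2 and 43.2. The basement membrane chain Col4a1 did not pass, with 1081 and 887 CPM against 326 and 316 CPM.

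The enzymes that process collagen followed in part. Of 15 compared, 11 were at least 4-fold higher and none lower (median 2.71 and 2.67). Serpinh1, the collagen chaperone of the endoplasmic reticulum, was at 2435 and 1991 CPM against 340 and 282, and Pcolce, an enhancer of procollagen cleavage, at 1532 and 1226 CPM against 75.4 and 61.8. Lox (lysyl oxidase), which cross-links collagen, was at 134 and 99.6 CPM against 12 and 6.70 CPM. Small proteoglycans and elastic fibre genes gave the largest count, with 33 of 38 compared genes higher and none lower (3.01 and 2.91). Bgn (biglycan) stood at 2514 and 1844 CPM against 136 and 103, and the microfibril gene Fbn1 (fibrillin 1) at 572 and 611 against 20.9 and 19.4. Tnxb, a tenascin that links collagen fibrils, was at 554 and 406 CPM against 17.3 and 14.2.

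Genes for matrix breakdown and its inhibitors were also present. Among 20 proteases and inhibitors compared, 14 were higher and none lower (2.67 and 2.50). The gelatinase gene Mmp2 was at 554 and 430 CPM against 14.6 and 10.9, the serine protease gene Htra3 at 595 and 1107 against 12.8 and 29.2, and Timp2, an inhibitor of matrix metalloproteinases, at 622 and 577 CPM. Timp1, another such inhibitor, differed between the libraries in the other cells: it was at 200 and 113 CPM in the quiescent cells and at 143 and 9.05 CPM elsewhere, so only WT 2 showed a ratio above 4-fold.

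Retinoid and lipid genes did not move as a block. Of 11 compared, 5 were higher and 3 lower in the quiescent cells, with medians of 0.17 and -0.10. The higher genes included Aldh1a1, Aldh1a2, Rarres2 and Lpl. Aldh1a2 makes retinoic acid and was at 141 and 138 CPM against 12.1 and 12.1 CPM. Lpl (lipoprotein lipase) was at 1691 and 1303 CPM against 76.4 and 86.7, whereas the lipid droplet coat gene Plin2 was at 98.9 and 97.2 against 86.6 and 105. The fatty acid carrier Fabp4 was lower, at 108 and 140 CPM against 2658 and 3601, as was the fatty acid receptor Cd36 at 2.83 and 4.6 against 112 and 138. Of 3 classical stellate cell genes compared, only Cygb (cytoglobin, a haem protein of stellate cells) was higher, at 476 and 1057 CPM against 16.0 and 49.3. Stra6, the membrane receptor for retinol uptake, had 0 and 2 UMIs.

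Signals that the quiescent cells carried for other cells were examined next. Of 16 growth factor genes compared, 6 were higher and 2 lower. Ptn, encoding the heparin-binding factor pleiotrophin, was at 670 and 506 CPM against 37.2 and 29.3, Gdf10, a member of the TGF-beta superfamily, at 276 and 299 CPM against 5.64 and 9.05, and Bmp4 at 126 and 167 against 9.60 and 13.9. The lymphatic growth factor Vegfd was at 146 and 75.4 CPM against 7.16 and 5.61. Rspo3, which amplifies Wnt signals, was at 160 and 233 against 5.39 and 8.29 CPM and was 1 of 3 higher genes among 4 compared of the Wnt and hedgehog list. Of 22 genes for receptors and binding proteins, 8 were higher and 1 lower, and among them the epidermal growth factor receptor Egfr stood at 113 and 116 CPM against 6.99 and 6.87.

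Of 26 cytokine and chemokine genes compared, 10 were higher and 4 lower. The eosinophil chemokine Ccl11 was at 2757 and 1848 CPM against 92.1 and 68.0 CPM, the neutrophil chemokine Cxcl1 at 1502 and 2333 against 260 and 321, and Il33, an alarmin held in the nucleus, at 171 and 169 against 12.6 and 12.7. Il6 was at 280 and 181 CPM against 31.0 and 17.8 CPM. Of 13 complement genes, 7 were higher and 4 lower. C3, the central complement protein, stood at 1340 and 972 CPM against 268 and 183, and the complement inhibitor Serping1 at 2434 and 2129 against 164 and 172. The 4 lower genes, C1qa, C1qb, C1qc and Clu, are expressed mainly by macrophages and ducts. Of 27 immediate early and heat shock genes, which respond to tissue handling, 0 were higher and 1 was lower (medians 0.25 and 0.39). Fos stood at 7317 and 6132 CPM in the quiescent cells and 4865 and 4372 CPM elsewhere.

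**Figure D2:**
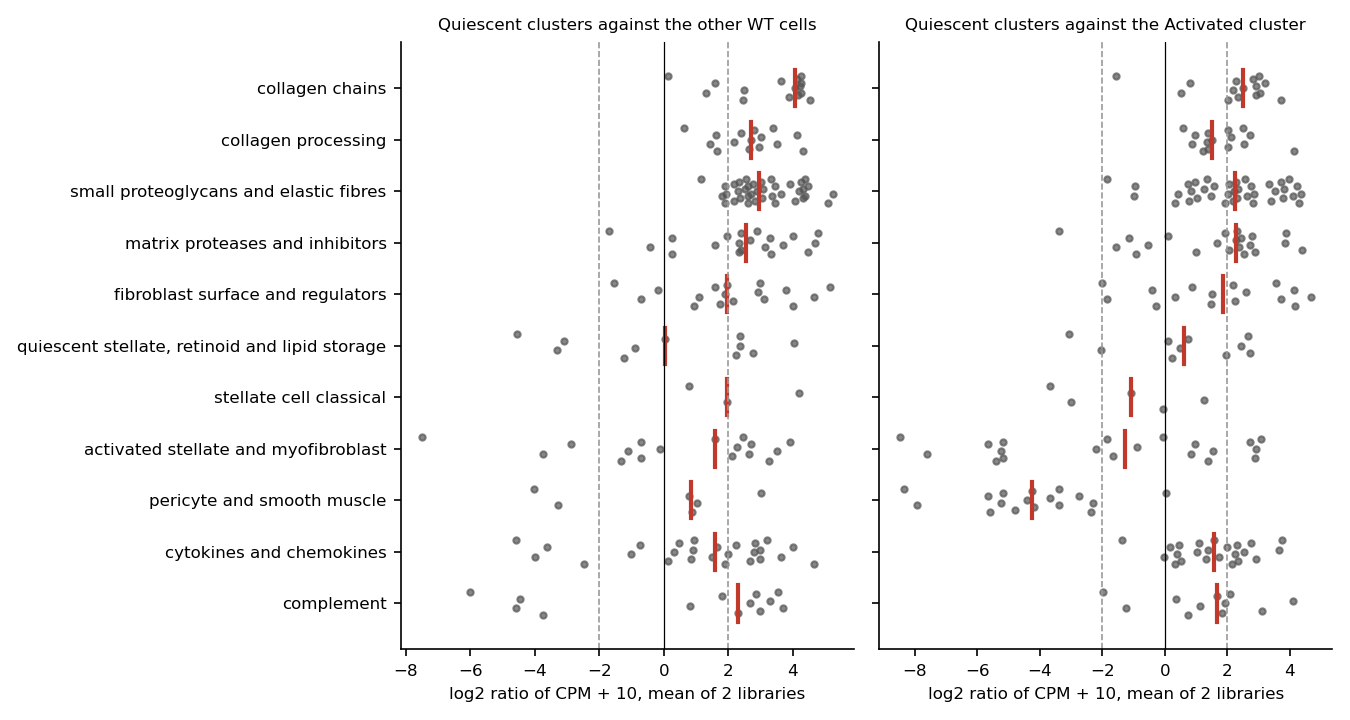
Each point is 1 gene of a list, placed at the mean of its log2 ratios in WT 1 and WT 2 for the quiescent cells against the other WT cells (left) and against the WT Activated cluster (right), and red bars mark list medians and dashed lines a 4-fold ratio. Collagen chains and small proteoglycans lay mostly to the right of the upper line on the left panel, and pericyte and smooth muscle genes far to the left of the lower line on the right panel.

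Against the 275 cells of the WT Activated cluster, 175 of 3232 genes compared were at least 4-fold higher in the quiescent cells (5.41%) and 214 lower (6.62%). Smooth muscle genes led the lower side. Acta2 (smooth muscle actin, chromosome 19:34240336-34255585 of GRCm38) was at 58.4 and 28.9 CPM in the quiescent cells and 20115 and 16762 CPM in the Activated cluster. Tagln (transgelin, which binds actin) was at 75.8 and 53.2 CPM against 14927 and 13751 CPM, and Rgs5, a regulator of G protein signalling typical of pericytes, at 2.02 and 3.45 against 4792 and 3620. In the list of pericyte and smooth muscle genes, 16 of 17 were lower and none higher, with medians of -4.16 and -4.46 against -0.06 and -0.08 over all genes. The WT Activated cluster thus carried the defining genes of pericytes and smooth muscle, Rgs5, Myh11, Cspg4, Notch3 and Kcnj8 among them.

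The activation list was split in this comparison. Of 20 activated stellate and myofibroblast genes compared, 7 were lower in the quiescent cells and 3 higher. The lower genes were the contractile Acta2, Tagln, Myl9, Tpm1, Tpm2, Actg2 and Cnn1. The higher genes were Loxl1, Lrrc17 and Timp1, the last at 200 and 113 CPM against 17.8 and 6.90. Collagen was higher in the quiescent than in the Activated cells, with 11 of 15 chains at least 4-fold higher and none lower (medians 2.48 and 2.33). Col1a1 was at 1296 and 1282 CPM against 127 and 62.1 CPM, log2 ratios of 3.25 and 4.16.

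Further genes on the quiescent side came from other lists. Clec3b (tetranectin, a plasminogen-binding lectin, chromosome 9:123150946-123157432) was at 2917 and 2712 CPM against 104 and 94.3 CPM, the elastic fibre gene Fbln2 at 892 and 693 against 35.7 and 23.0, and the adhesion gene Svep1 at 482 and 259 against 12.7 and 4.6. Universal fibroblast genes were higher in 7 of 12 cases (medians 2.59 and 3.14), and small proteoglycan and elastic fibre genes in 17 of 38 (1.89 and 2.60), with none lower in either list. Of 23 cytokine and chemokine genes compared, 7 were higher and none lower (medians 1.40 and 1.81). Ccl11, at 1088 and 681 CPM in the Activated cluster, and Il6, at 329 and 94.3 CPM there, did not pass a 4-fold ratio in both libraries.

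The 2 quiescent clusters were then compared with each other. Of 2873 genes compared, 49 were at least 4-fold higher in Quiescent 2 (1.71%) and 48 in Quiescent 1 (1.67%). Fibroblast genes known from other organs split between them. Of 13 genes of universal or adventitial fibroblasts, which lie around vessels and are held to be a reserve population, 12 were higher in Quiescent 2 (medians 2.93 and 3.35), and of 10 genes of parenchymal fibroblasts 5 were higher in Quiescent 1 (medians -2.16 and -2.62). Over all genes the medians were -0.06 and -0.08. The lists were chosen with results of these data known, and the clusters were made from such genes, so the counts describe the split and do not test it.

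Pi16 (chromosome 17:29318796-29328903) stood at 3290 and 4701 CPM in Quiescent 2 of WT 1 and WT 2 and at 151 and 124 CPM in Quiescent 1. Fn1 (fibronectin, an adhesive matrix protein) was at 2420 and 1934 CPM in Quiescent 2 against 174 and 158, and Cd55, which protects cells from complement, at 561 and 796 CPM against 48.7 and 46.9. The surface peptidase gene Dpp4 was at 291 and 279 CPM against 30.4 and 18.4, and the guidance factor Sema3c at 274 and 295 against 25.5 and 18.1. These genes were counted for passing a 4-fold ratio in both libraries, so the same order in both follows from the rule. Has1, which makes hyaluronan, was at 1382 and 1539 CPM against 318 and 366. Igfbp6, a binding protein for insulin-like growth factor 2, was the compared universal gene under a 4-fold ratio, at 3550 and 5569 CPM against 1401 and 1723.

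Genes higher in Quiescent 1 had varied roles. Of 15 growth factor genes compared, 3 were higher in Quiescent 1 and 2 in Quiescent 2. Ptn was at 901 and 659 CPM in Quiescent 1 and 20.1 and 6.36 CPM in Quiescent 2, and Mgp (matrix Gla protein, an inhibitor of calcification) at 5432 and 4079 against 765 and 297. The chemokine gene Cxcl14 was at 108 and 753 CPM against 5.41 and 8.80, so that its level also differed between the libraries within Quiescent 1. Hsd11b1, which regenerates active glucocorticoid, was at 1714 and 1005 CPM against 214 and 84.1, and G0s2, an inhibitor of fat breakdown, at 1437 and 1312 CPM against 157 and 89.5. Among pericyte genes Ndufa4l2, Vtn and Steap4 were higher in Quiescent 1, with Ndufa4l2 at 232 and 234 CPM against 8.51 and 7.82. Collagen chains did not separate the clusters, with 0 of 17 past a 4-fold ratio in either direction. Col1a2 was at 2370 and 2293 CPM in Quiescent 1 and 2399 and 2058 CPM in Quiescent 2. The clusters also differed in depth, with medians of 4478 and 3460 UMIs per cell in Quiescent 1 and 6442 and 4660 in Quiescent 2, and in the share of ribosomal protein UMIs (8.51% and 9.94% against 12.2% and 15.2%). The part of depth in the split was not tested.

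**Figure D3:**
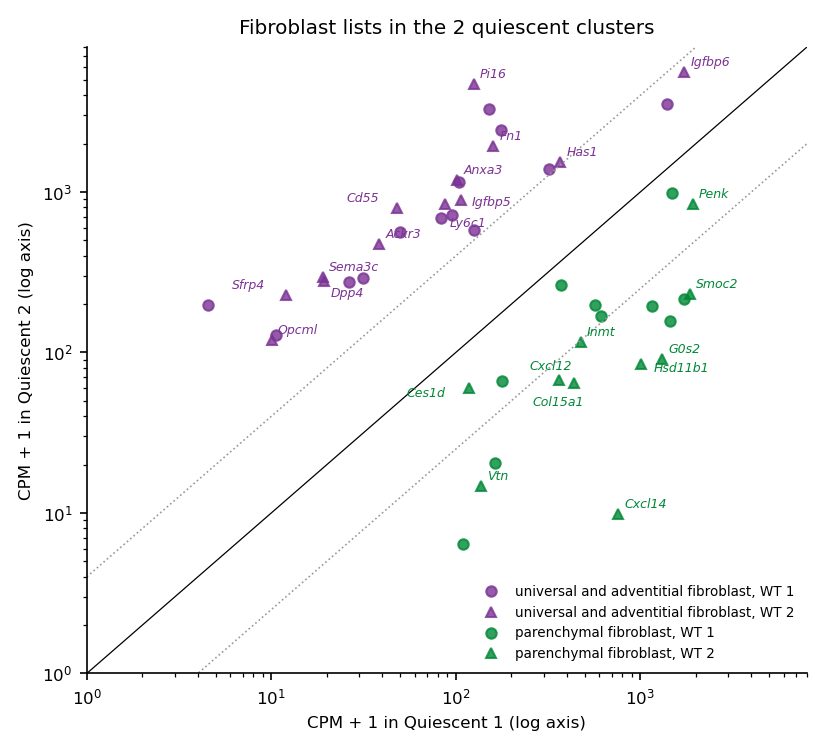
Level in Quiescent 1 (x axis) and Quiescent 2 (y axis), both as CPM + 1 on log axes, for genes of the universal and adventitial (purple) and the parenchymal (green) fibroblast lists, with circles for WT 1, triangles for WT 2, a solid line of equality and dotted lines at a 4-fold ratio. Purple points lay above the line of equality and green points below it in both libraries.

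The quiescent cells were also clustered again on their own, which gave 7 sub-clusters described by their leading genes. Sub-cluster 5, with 186 and 433 cells, was led by Pi16, Fn1 and Anxa3, and 176 and 420 of its cells were in Quiescent 2. Sub-clusters 1 to 4 lay almost wholly in Quiescent 1. Sub-cluster 1 (203 and 524 cells) was led by Thbs1, which encodes the matrix protein thrombospondin 1, at 1678 and 1476 CPM against 733 and 595 CPM in the remaining quiescent cells, with Cxcl1 and Ptgs2 also among its leading genes. Sub-cluster 2 (257 and 557 cells) was led by Dlk1, a Notch ligand relative, at 224 and 418 CPM against 42.7 and 82.4. In sub-cluster 3 (247 and 545 cells) the lead was Cxcl14, at 190 and 1411 CPM against 60.2 and 417, followed by Apod and Smoc2. Immediate early and heat shock genes summed to 54696 and 54705 CPM in sub-clusters 1 and 2 and to 23997 CPM in sub-cluster 3.

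Sub-cluster 4 (126 and 232 cells, 12.3% and 9.89% of the libraries' quiescent cells) stood further apart. Its first gene was Mfap4, a microfibril-associated protein, at 1655 and 889 CPM against 43.6 and 144. Ptn was at 2736 and 1560 CPM there against 356 and 390 in the remaining quiescent cells (chromosome 6:36714924-36810179). Both libraries contributed cells to it in similar shares.

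Sub-cluster 7 had 31 cells, all in WT 2 and all in Quiescent 1 (1.32% of the quiescent cells of WT 2), and 0 of 1024 in WT 1, which allows a share of up to 0.293% there. It was led by Cthrc1, a secreted protein of matrix-producing fibroblasts, at 1288 CPM against 13.6 CPM in the other quiescent cells of WT 2. Col1a1 was at 11739 CPM against 929 CPM, Inhba (a subunit of activin) at 727 against 7.73 and the Wnt modulator Sfrp2 at 1291 against 31.8. Collagen chains summed to 47624 CPM there and to between 7974 and 12672 CPM in the other 6 sub-clusters. Its median depth was 8215 UMIs per cell. As these cells came from 1 mouse, they may belong to that library and not to a type.

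Sub-cluster 6 held 5 and 24 cells and was led by endothelial genes. Fabp4 was at 7754 and 5889 CPM against 63.6 and 68.8, and the growth factor receptor gene Flt1 and the adhesion gene Pecam1 were also among its 10 leading genes. Scrublet called 1 and 23 of its cells doublets, droplets with more than 1 cell. In all cells it marked 2 of 4327 in WT 1 and 165 of 6326 in WT 2, so the call in WT 1 says little about doublets there.

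**Figure D4:**
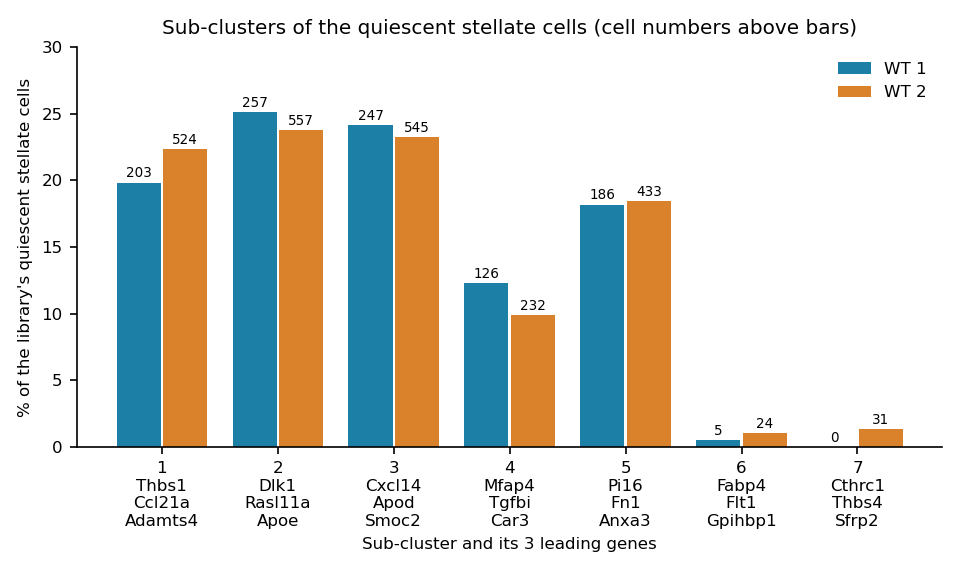
Share of each library's quiescent stellate cells (y axis, % of cells) in each of 7 sub-clusters (x axis, with the 3 leading genes), for WT 1 and WT 2, with cell numbers above the bars. Sub-clusters 1 to 5 took similar shares in both libraries, and sub-cluster 7 had 31 cells in WT 2 and 0 in WT 1.

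Within the quiescent cells the 2 WT libraries differed at few genes. Of 3244 genes with at least 50 CPM in either library, 32 were at least 4-fold higher in WT 2 and 1 in WT 1 (1.02% together), and there was no test with 1 mouse on each side. The small heat shock protein gene Hspb1 was at 9.91 CPM in WT 1 and 401 CPM in WT 2, but it moved likewise in the other cells (37.3 and 1623 CPM). Also among the 10 genes furthest to WT 2 were Scand1 (0 and 124 CPM), H2afj (2.43 and 160 CPM) and Pgls (7.68 and 206 CPM). In the other cells Scand1 was at 0.674 and 136 CPM, H2afj at 5.81 and 241 and Pgls at 14.7 and 216. They were thus low in WT 1 in both sets of cells. Jun, an immediate early factor, was at 1754 and 7063 CPM in the quiescent cells and 1514 and 5631 CPM in the others. In the opposite direction, Reg3b, a gene of injured acinar cells, was at 85.9 CPM in WT 1 and 7.36 CPM in WT 2, against 3775 and 38 CPM in the other cells. Manf, a protein of endoplasmic reticulum stress, was at 1228 and 394 CPM in the quiescent cells, under a 4-fold ratio. Each of these genes had the same order in the other cells of the libraries.

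Finally, the WT quiescent cells were compared with the stellate clusters of the i4F and CER pancreas, over mice. UMIs were summed per mouse over 1024 and 2346 WT cells, 4393, 2681 and 1280 i4F cells and 3675 and 2040 CER cells, and 14583 genes were tested with edgeR's quasi-likelihood test and Benjamini-Hochberg adjustment. The WT cells had been named quiescent and the others Activated, so this contrast holds the naming as well as the condition. Library i4F 3 stood apart. In it 91.2% of the stellate cells were in a second cluster, Activated 2, against 3.28% and 4.70% in i4F 1 and i4F 2, and its median depth was 2554.5 UMIs per cell against 9918 and 8942.

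In i4F, 1715 genes were higher (11.8%) and 1146 lower (7.86%), and in CER 1366 were higher (9.37%) and 866 lower (5.94%). Both comparisons share the WT mice. Without TMM scaling, which moved the median of all genes by -0.13 in both comparisons, the split was 1389 higher (9.52%) and 1621 lower (11.1%) in i4F and 1043 (7.15%) and 1081 (7.41%) in CER, so the excess of higher genes depended on the scaling. Counts rested on single libraries. The 2861 calls of i4F became 7459 without i4F 3, 161 without i4F 1, 24 without i4F 2, 10 without CER 1, 52 without CER 2 and 0 without either WT 1 or WT 2 by edgeR, where 4014 and 5111 genes had an unadjusted p under 0.05. The 2232 calls of CER became 6118 without i4F 3, 867 without i4F 2, 22 without WT 2, 1 without WT 1, 5 without CER 1 and 47 without CER 2. With the library name series as a term, 0 genes passed for i4F (4740 at an unadjusted p under 0.05) and 1 for CER (3679), and within a series each condition can be set against 1 WT mouse. The counts by gene list given next come from the same fit and rest on the same libraries. Without i4F 3, 23.5% of all genes tested were higher and 23.6% lower in i4F, and 19.6% higher and 19% lower in CER, and list counts given without i4F 3 are to be read against these shares. Of the 4 defining markers, 0 rose and 0 fell in i4F and 1 rose and 0 fell in CER with all mice (0 and 1 in i4F and 0 and 0 in CER without TMM scaling), against 0 and 3 in i4F and 1 and 3 in CER without i4F 3.

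Dcn was at 26926 and 25189 CPM in WT, 1614, 2087 and 15893 CPM in i4F and 2442 and 2586 CPM in CER. All i4F and CER values lay below those of WT, but the spread within i4F was wide and neither comparison passed the test (log2 fold change -1.83 ± 0.93 (SE), adjusted p = 0.181, and -3.25 ± 1.13, adjusted p = 0.0843). Clec3b showed the same order, at 2917 and 2712 CPM in WT, 42.5, 61.2 and 1245 CPM in i4F and 112 and 107 CPM in CER (adjusted p = 0.192 and 0.0938). Pi16 was at 972 and 1201 CPM in WT, 170, 229 and 536 in i4F and 43.5 and 49.1 in CER. It fell in CER (-4.44 ± 0.61, adjusted p = 0.0149) and missed the threshold in i4F (-1.67 ± 0.48, adjusted p = 0.0504). Of 15 universal fibroblast genes tested, 10 fell and none rose in CER, and 6 fell and 1 rose in i4F. Without i4F 3, 13 fell and 0 rose in CER and 12 fell and 1 rose in i4F. Dpp4 fell in both, from 98.7 and 79.7 CPM to 35.6, 29.7 and 43.1 in i4F and 16.4 and 13.6 in CER. The gene that rose was Wnt2, a Wnt ligand, from 9.71 and 14.6 CPM to 140, 63.4 and 38.8 in i4F.

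Of 29 genes of the activation list, 16 rose, 2 fell and 11 did not pass in i4F, and 14 rose, none fell and 15 did not pass in CER. Without i4F 3, 21 rose and 4 fell in i4F and 21 rose and 3 fell in CER. Timp1 (chromosome X:20870166-20874737) was at 200 and 113 CPM in WT, 8515, 9282 and 2788 CPM in i4F and 4832 and 4757 CPM in CER. Groups did not overlap, and it rose by 5.60 ± 0.65 on the log2 scale in i4F (adjusted p = 0.0153) and by 5.09 ± 0.65 in CER (adjusted p = 0.0136). Tnc (tenascin C, a matrix protein of injured tissue) was at 3.84 and 3.57 CPM in WT, 396, 274 and 151 in i4F and 289 and 353 in CER, and rose in both (6.34 ± 0.51 and 6.56 ± 0.52, adjusted p = 0.00710 and 0.00652). Acta2 was at 58.4 and 28.9 CPM in WT, 2345, 605 and 636 in i4F and 1576 and 1366 in CER. It passed the test in both (adjusted p = 0.0206 and 0.0173), but this rested on leaving the WT Activated cluster out. With all WT stellate clusters Acta2 was at 1533 and 826 CPM in WT, the log2 fold changes were 0.21 in i4F and 0.50 in CER, and neither passed. Tagln, Tpm1, Tpm2 and Actg2 also did not pass then, and the list stood at 11 higher and 2 lower in i4F and 10 higher and none lower in CER. The added cluster carried pericyte and smooth muscle genes. Of 17 genes of that list, 8 fell in i4F and 9 in CER in this setting, and none rose. With the quiescent clusters alone, 2 rose and 2 fell in i4F and 1 rose and none fell in CER. The part of pericytes and smooth muscle in the change at Acta2 was not tested. Over all genes tested with all WT stellate clusters, 12% were higher and 8.58% lower in i4F and 9.99% higher and 7.1% lower in CER. Timp1, Tnc, Postn and Lox still passed in both.

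Collagen chains were divided. In CER 7 of 29 rose and 1 fell, and in i4F 5 rose and 5 fell. Col1a1 was at 1296 and 1282 CPM in WT, 3981, 2234 and 1481 in i4F and 5328 and 6313 in CER, and it rose in CER (2.30 ± 0.47, adjusted p = 0.0276) and not past the threshold in i4F (1.12 ± 0.42, adjusted p = 0.0925). Col1a2 and Col3a1 rose in CER as well, by 1.33 ± 0.34 and 1.43 ± 0.34, but without TMM scaling Col1a2 did not pass (log2 fold change 1.21). The 5 chains that rose in i4F were Col7a1, Col8a1, Col11a1, Col12a1 and Col28a1, and Col5a3, Col6a1, Col6a2, Col15a1 and Col4a5 fell there. Without TMM scaling, 4 rose and 3 fell in CER and 5 rose and 7 fell in i4F. Without i4F 3, 11 of 31 chains rose and 7 fell in CER, and 9 rose and 16 fell in i4F, beside 19.6% and 19% of all genes in CER and 23.5% and 23.6% in i4F. Small proteoglycans and elastic fibre genes had 3 higher and 7 lower of 42 in i4F and 3 higher and 8 lower in CER, and the counts were 1 and 11 in i4F and 3 and 12 in CER without TMM scaling, and 4 and 28 in i4F and 6 and 27 in CER without i4F 3.

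In the Wnt and hedgehog list of 30 tested genes, 8 fell and 6 rose in i4F and 8 fell and 3 rose in CER. Without i4F 3, 12 fell and 7 rose in i4F and 13 fell and 4 rose in CER. Wnt4 and the Wnt-induced genes Wisp1 and Wisp2 were among those that rose in both, and Gli1, Gli3, Ptch1 and Hhip among those that fell in both. Gli1, a transcription factor induced by hedgehog, was at 11.7 and 13.7 CPM in WT, 0.785, 0.691 and 3.96 in i4F and 0.896 and 1.2 in CER (log2 fold change -3.10 ± 0.72 and -3.52 ± 0.82). Ptch1, the hedgehog receptor and also a target, fell by 1.22 ± 0.27 and 1.97 ± 0.31 on the log2 scale. The edgeR adjusted p values of Gli1 were 0.0328 and 0.0370, and those of Ptch1 0.0303 and 0.0171.

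Several cytokine genes with low levels in the quiescent cells rose. Of 49 tested, 14 rose and none fell in i4F and 10 rose and none fell in CER, while without TMM scaling 1 fell in each. Without i4F 3, 16 rose and 13 fell among 48 tested in i4F, and 13 rose and 9 fell in CER, beside 23.5% and 23.6% of all genes in i4F and 19.6% and 19% in CER. Saa3 (an acute phase protein) was at 0.809 and 0.805 CPM in WT, 156, 280 and 105 in i4F and 281 and 312 in CER. Il11, a cytokine of the interleukin 6 family, was at 6.07 and 5.75 CPM in WT, 218, 223 and 73.0 in i4F and 70.1 and 29.6 in CER, a rise of 4.99 ± 0.69 and 3.23 ± 0.66 on the log2 scale (adjusted p = 0.0199 and 0.0286). Cxcl1 and Il6, which the WT quiescent cells already carried, were not called: Il6 was at 280 and 181 CPM in WT, 130, 253 and 430 in i4F and 253 and 294 in CER. Slpi, a protease inhibitor, rose by 7.64 ± 0.61 in i4F, from 3.44 and 1.61 CPM to 295, 390 and 627, and by 2.46 ± 0.53 in CER, where it reached 14.6 and 9.19.

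Of 24 cell cycle genes, 17 rose in each condition, and 1 fell in i4F and 2 in CER. Top2a, a topoisomerase of dividing cells, was at 1.82 and 0.575 CPM in WT, 129, 111 and 25.0 in i4F and 137 and 166 in CER (6.47 ± 0.91 and 7.23 ± 0.95, adjusted p = 0.0201 and 0.0145). Retinoid genes had 5 of 20 higher and none lower in i4F and 3 higher and none lower in CER (2 higher and 1 lower without TMM scaling). Without i4F 3, 7 rose and 5 fell of 19 in i4F and 5 rose and 5 fell in CER. Aldh1a2 rose in both, from 141 and 138 CPM to 239, 238 and 345 in i4F and 475 and 531 in CER. Lrat stayed at 3.96 CPM or less in every mouse.

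Genes that fell furthest from the quiescent level and had no overlap between groups included Nmb, the peptide neuromedin B, at 83.5 and 101 CPM in WT, 5.08, 7.21 and 21.5 in i4F and 7.24 and 9.99 in CER (-2.99 ± 0.59 and -3.32 ± 0.69). Gdf10 fell in i4F, to 9.90, 25.4 and 74.2 CPM from 276 and 299, and Tppp3, a tubulin-binding protein, to 29.5, 35 and 134 from 655 and 490. Both also lay below the WT mice in CER, Gdf10 at 70.4 and 87.5 CPM and Tppp3 at 77.0 and 69.9 CPM. In CER the glutathione transferase gene Gsta3 fell to 4.16 and 5.46 CPM from 183 and 174 CPM, and the scavenger receptor gene Scara5 to 11.8 and 13.3 CPM from 212 and 153. Penk fell in CER by 3.39 ± 0.77 on the log2 scale. Gsta3, Scara5 and Penk also lay below both WT mice in every i4F mouse. Gsta3 was at 6.49, 19.6 and 99.0 CPM there, Scara5 at 68.1, 110 and 97.5 and Penk at 171, 135 and 606. The named falls passed with adjusted p between 0.00652 and 0.0402 by edgeR.

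Markers of other cells moved with the conditions. Of 15 macrophage genes, 14 rose and none fell in each condition, with a summed level of 31.3 and 66.6 CPM in WT, 590, 514 and 361 in i4F and 2001 and 1266 in CER, and their part in the cytokine results was not tested. Acinar genes summed to 1195 and 1159 CPM in WT, 513, 1343 and 14922 in i4F and 219 and 202 in CER, and 0 of 15 passed in either condition by edgeR with all mice, while without TMM scaling 2 rose in i4F. Without i4F 3, which held the highest acinar sum, 2 rose and 12 fell in i4F and 0 rose and 12 fell in CER. At least 2 UMIs of 9 mesothelial genes were found in 10.6% and 3.96% of the WT cells, 14.8%, 13.8% and 10.3% of the i4F cells and 7.29% and 2.70% of the CER cells. Mesothelial genes summed to 345 and 361 CPM in WT, 174, 247 and 612 in i4F and 67.7 and 79.0 in CER. Of these sums, Igfbp5 alone held 243 and 291 CPM in WT, 22.8, 44.9 and 121 in i4F and 12.8 and 16.4 in CER. Of 10 mesothelial genes tested, 5 rose and none fell in i4F (median log2 fold change 4.75), and none rose and 1 fell in CER. In i4F, 7 rose and 2 fell without i4F 3 (median 3.14), and with the i4F cells of Activated 1 only 2 rose and 2 fell of 6 tested (median -0.998). Over all 14449 genes tested in this last setting, 3513 were higher and 3380 lower in i4F. Ductal genes summed to 274 and 167 CPM in WT, 2518, 3924 and 1115 in i4F and 803 and 984 in CER, with 3 of 14 higher and none lower in i4F and none higher and 1 lower in CER. Without i4F 3, 3 ductal genes rose and 4 fell in i4F and 2 rose and 3 fell in CER. Of 12 endothelial genes, 3 fell in i4F and 5 in CER, and none rose, and without i4F 3 the falls were 8 and 10. With only cells under 2 mesothelial UMIs (chosen after seeing the data), 14296 genes were tested. I4F then gave 2490 calls, 2351 of them shared with the main fit, and CER 2086, 1970 of them shared. Beyond this, the part of these cells in the results was not tested. The rtTA transgene was at 43.9, 48.1 and 41.6 CPM in the i4F mice and at 0.809 CPM or less in all others. Within i4F the cluster Activated 2 lay nearer to the WT quiescent cells at several genes: Dcn was at 7873, 8347 and 19688 CPM there against 1496, 1936 and 4530 in Activated 1, and Timp1 at 2382, 1700 and 689 against 8630, 9466 and 9074 CPM. Tnc was at 18.7, 10.9 and 12.2 CPM in Activated 2 and at 403, 280 and 567 in Activated 1. No test was made between these clusters. Cells with at least 2 mesothelial UMIs numbered 652, 369 and 132 among all i4F stellate cells and 541, 298 and 15 in Activated 1. Activated 2 held 144, 126 and 1167 cells, so in i4F 1 and i4F 2 a large part of it carried mesothelial UMIs. The WT mesothelium had Dcn at 11376 and 16407 CPM. The part of mesothelial cells in the levels of Activated 2 was not tested.

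**Figure D5:**
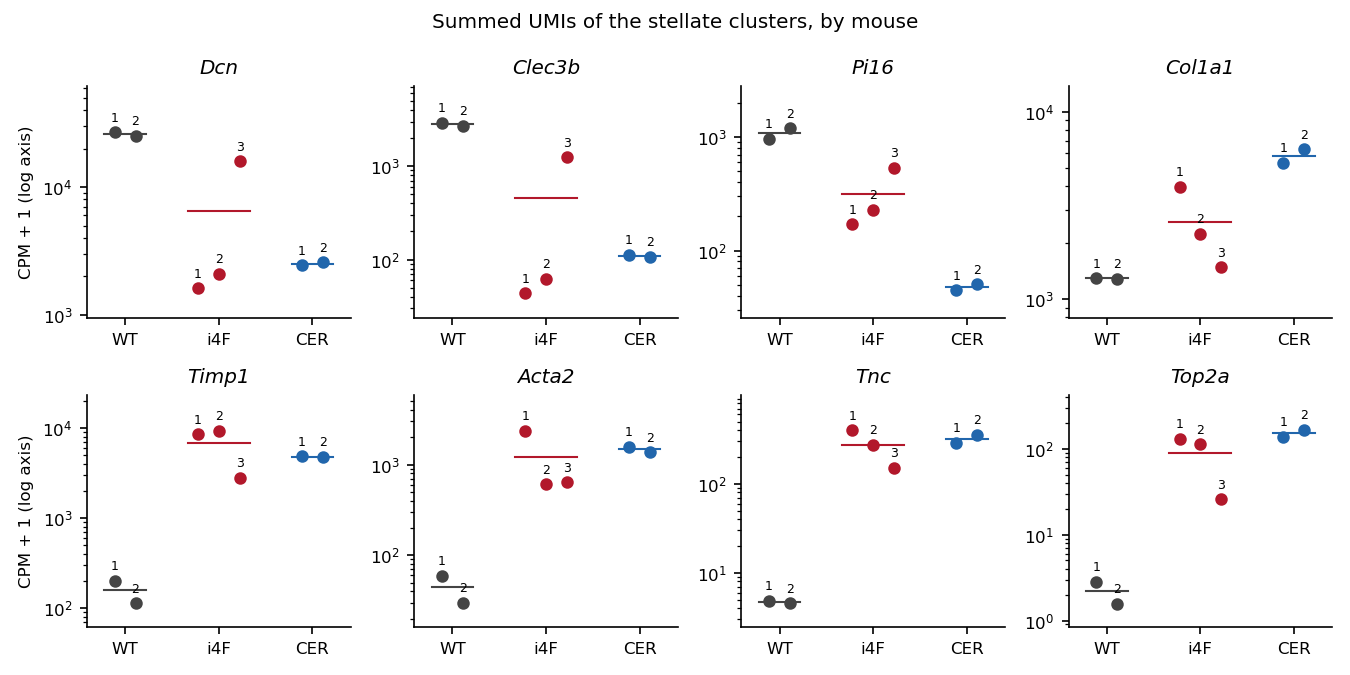
Level of 8 genes in the summed stellate clusters of each mouse (CPM + 1, log axis), with numbered points for mice and lines for group means in WT (quiescent clusters), i4F and CER (all stellate clusters, named Activated). Timp1, Acta2, Tnc and Top2a were lowest in both WT mice, and i4F 3 lay nearest to WT for Dcn and Clec3b.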

How the data were processed

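The authors sequenced 10x 3' libraries, aligned them with Cell Ranger to mm10 (GRCm38) and deposited whole-number UMI counts per gene and cell with cluster names; cells under 150 genes or over 5% mitochondrial reads had been removed per their methods. The deposited percent values give each cell's UMIs on mitochondrial and on ribosomal protein genes. SoupX is named in the methods, and whether it preceded the tables is not given in the sources used here. Counts were summed per mouse and cluster and divided to CPM. Conditions were tested with edgeR 4.0.16 (TMM, filterByExpr, 7 mice in 3 groups, two-sided, adjusted p under 0.05). The SE given after ± is the absolute log2 fold change divided by the square root of the test's F statistic. It thus restates the test and is not a separate estimate of spread. The planned cell rule found 0 cells in i4F and CER, so all their clusters with stellate in the name were used. Replicates were separate mice. Quiescent cells were clustered with scanpy 1.11.5 (2000 variable genes, 20 components, Leiden resolution 0.5). Scrublet marked 2 cells in WT 1 and 0 in i4F 3, too few to serve as a doublet filter there. Libraries shared 3 to 39 cell barcodes. On simulated data for 14583 genes, 50 genes were planted per fold and comparison and all others left unchanged. Rises and falls of 4-fold were recovered in 54% and 68% of cases for i4F and 42% and 36% for CER. Those of 2-fold were recovered in 2% and 6% for i4F and 0% for CER. Fewer genes changed there than were called in the mice, so these rates need not hold for the fits to the mice. Named were all genes of the marker and pathway lists, the 20 highest and 10 lowest by ratio, up to 10 per direction by fold change (4 log2 CPM or more, groups not overlapping), 10 per direction between WT libraries and 10 leading each sub-cluster. Members and lists were chosen with earlier results of these data known. Gene positions are from RefSeq for GRCm38.p6. Alternatives covered scaling, filters, cell sets, pairing and single libraries. Some genes of the lists are counted but not reported here by name.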

Additional observations from a re-analysis of the deposited data

How the results depend on the processing

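The i4F comparison gave 4809 calls with no filter, 10 with the 2 groups alone, 6893 with i4F cells of Activated 1 only (chosen after seeing the data), 0 with the library name series as a term, and 0 to 7459 when leaving out single libraries, against 2861. The CER comparison gave 3501 with DESeq2, 4145 with no filter, 5088 with the 2 groups alone, 5465 with i4F cells of Activated 1 only, 1 with the series term and 1 to 6118 when leaving out single libraries, against 2232. The cause was not tested. The replicate block gave 6300 calls for i4F and 4896 for CER, and 5902 with the pairing crossed (chosen after seeing the data). Same-numbered mice did not deviate together (correlations 0.00190 and -0.0216 for WT with i4F, -0.365 for WT with CER), so the numbers were not read as pairs. For Col1a2 in i4F, the log2 fold change of 0.21 reversed to -0.084 without i4F 1 and was up to 0.37 when leaving out other libraries, and it was called in neither. With 50 CPM added, 114 genes were higher than in other WT cells (265 with 10 CPM) and 73 than in the Activated cluster (175). Among cells with at least 500 genes the quiescent share was 35.3% in WT 1 and 44.8% in WT 2, and outside acinar clusters 29.5% and 43.4%. Over named genes in the tests, 3107 values kept their side of the threshold, 1470 lost the call, 32 gained it and 1 reversed. Genes with few UMIs, such as Lrat with 12 and 5, have wide counting error, and each test rests on 2 WT mice.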
